A study of Mus musculus with 6 samples.

Results

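The adenylyl cyclase genes Adcy1 to Adcy9 encode the membrane-bound enzymes that turn ATP into cyclic AMP (cAMP). They were chosen by gene symbol, as a family, and all 9 were among the 33696 genes counted, and the rule uses no measured value. Each symbol named 1 gene of the count matrices. The remaining family gene, Adcy10, which encodes a soluble enzyme, was listed at 0.342 to 1.48 UMIs per 1000000 UMIs over the 6 libraries and is not described further.

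The cells came from Achilles tendons of Gli1-CreERT2; Ai9 mice given tamoxifen, either uninjured or collected 7 or 21 days post injury (dpi) by tenotomy, the surgical cutting of the tendon. In the injury procedure of the study, the tendon was clamped repeatedly with forceps before it was cut. The labels name 24 mice, 8 for each time point, and do not give their age. By the design, the tendons of each time point were divided by sorting into Gli1+ and Gli1- cells, with 1 library for each that pooled its mice. All groups, uninjured controls included, carried the Cre driver and the reporter and had received tamoxifen. Since the reporter stays on once Cre has acted, Gli1+ by design means a cell with past Gli1 promoter activity or a descendant of one. This holds whatever the type of the cell and its present Gli1 level. How far the sorted libraries hold such cells was not tested. In the Gli1+ uninjured library 3743 of 7508 cells were leukocytes by the gate given below.

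Adenylyl cyclases sit downstream of G protein-coupled receptors. The stimulatory G alpha subunit encoded by Gnas switches them on, the inhibitory G alpha subunits hold some of them back, and the cAMP they make activates protein kinase A (PKA) and the exchange factors Rapgef3 and Rapgef4 until phosphodiesterases break it down. The isoforms differ in what else controls them. Adcy1, Adcy3 and Adcy8 encode isoforms that respond to calcium and calmodulin, Adcy2, Adcy4 and Adcy7 isoforms that respond to G protein beta gamma subunits, Adcy5 and Adcy6 isoforms that calcium inhibits, and Adcy9 an isoform that responds weakly to the plant compound forskolin. The study asked about Gnas and PKA signaling in tendon progenitors, and the isoforms present in each cell type are the enzymes between these steps.

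The files hold counts of unique molecular identifiers (UMIs, 1 for each captured transcript). After the cell filters of the study, 7508 to 12042 cells were kept per library, with 62710551 to 122826699 UMIs in all and a median of 4541.5 to 10256.5 UMIs per cell. Libraries shared 27 to 75 barcodes per pair, at most 0.534% of the barcodes of a library. Levels were computed by adding up the UMIs of a gene in a set of cells and dividing by all UMIs of these cells, per 1000000 (CPM), and its exact Poisson 95% interval covers counting error only. Levels count 3 prime ends and were not divided by transcript length. Time points were not tested against each other, since each is 1 cohort of mice with 1 library per sort. The libraries also differed in the sex of their cells, although the labels give equal numbers of both sexes. Cells with Y-linked UMIs and no Xist made up 72.0% and 71.9% of the Gli1+ and Gli1- libraries at 7 dpi and at most 0.103% at 21 dpi, where 92.8% and 91.0% had Xist and no Y-linked UMI. In uninjured tendon, 68.7% of the Gli1+ cells had Xist and no Y-linked UMI, against 0% of the 12042 Gli1- cells. Of those Gli1- cells 60.9% had Y-linked UMIs and no Xist, as did 14.5% of the Gli1+ uninjured cells. Time point and sex therefore cannot be told apart in the ratios over uninjured of Gli1+ cells at 7 dpi and of Gli1- cells at 21 dpi. The Gli1- libraries of uninjured tendon and 7 dpi both read as male, and the Gli1+ libraries of uninjured tendon and 21 dpi both as mostly female. Sort and sex cannot be told apart in uninjured tendon. The libraries of all time points thus go against labels of equal sexes, and the 2 uninjured libraries also differ from each other. Whether mice, pools or libraries differ from what is labelled was not tested. Gli1 itself was at 16.2, 2.30 and 3.60 CPM in Pdgfra cells labelled Gli1+ and at 8.84, 2.42 and 4.05 CPM in those labelled Gli1-, higher in the Gli1+ cells of uninjured tendon only. Over whole libraries it was at 6.66, 2.11 and 4.10 CPM in Gli1+ against 7.73, 2.52 and 4.12 CPM in Gli1- cells. Every ratio over uninjured rests on the uninjured libraries and cannot be had without them, while types were also compared without each of them and sorts without both.

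Cell types were cut per cell by 2 or more UMIs of a defining gene. Pdgfra marked fibroblast and progenitor mesenchyme, Scx the tenocyte lineage, Col2a1 chondrocytes, Cdh5 endothelium, Rgs5 pericytes and vascular smooth muscle, and Ptprc leukocytes. Pdgfra, Scx and Col2a1 counted as 1 mesenchymal lineage, in which a cell that passed for several was given to Col2a1 first, then to Scx, then to Pdgfra, so Pdgfra cells are those short of the Scx and Col2a1 gates. Cells that passed for more than 1 of the mesenchymal, Cdh5, Rgs5 and Ptprc lineages were left out, 89 to 2027 per library. The libraries held 1312 to 4401 Pdgfra cells, 69 to 1270 Scx cells, 75 to 1414 Cdh5 cells and 123 to 1237 Rgs5 cells. Ptprc cells were sampled in only 1 library, with 3743 in Gli1+ uninjured tendon and at most 15 elsewhere, and Col2a1 cells reached 50 cells only after injury. The check markers were above the whole-library level in every library for the Scx list (Tnmd, Fmod, Thbs4, Mkx, Kera), the Cdh5 list, the Rgs5 list and, after injury, the Col2a1 list. In the Pdgfra list, Ly6a and Tppp3 were above it in 5 of 6 libraries and the other 5 markers in all 6.

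The make-up of the family differed between cell types. The 9 genes together had 137 to 189 CPM in Pdgfra cells, 161 to 361 in Scx cells, 133 to 179 in Col2a1 cells, 138 to 217 in Cdh5 cells and 195 to 368 in Rgs5 cells. Ptprc cells had 91.5 CPM. Adcy2, Adcy7 and Adcy9 led in mesenchyme, Adcy4 in endothelium, Adcy6 and Adcy9 in Rgs5 cells before injury and Adcy7 in leukocytes, whereas Adcy1 and Adcy8 stayed at or under 3.23 CPM in mesenchyme and endothelium.

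**Figure D1:**
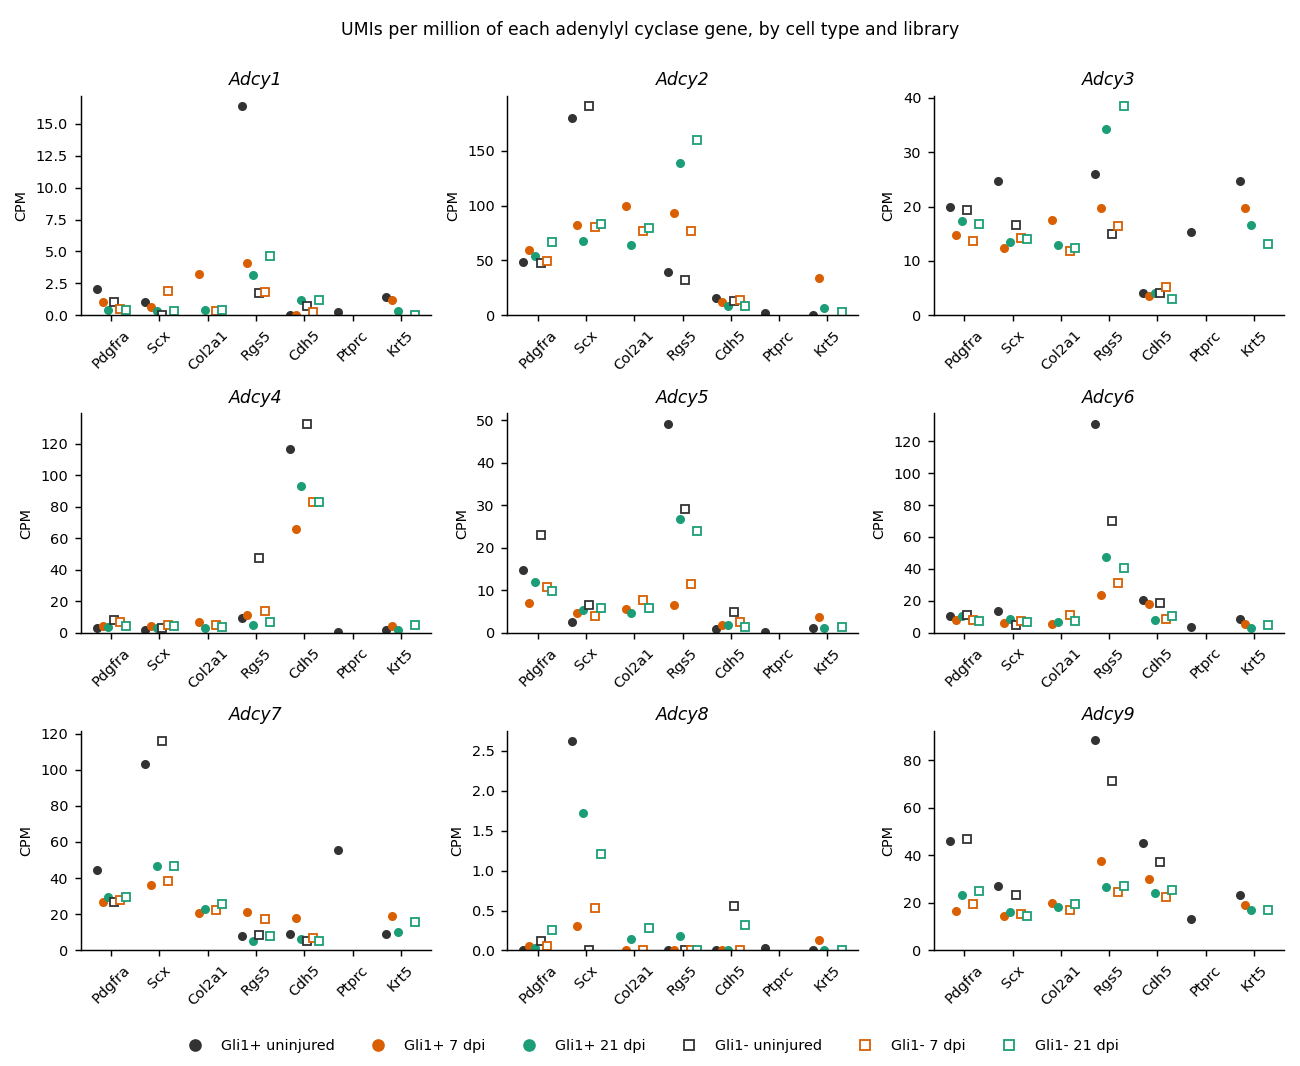
Level of each adenylyl cyclase gene (y axis, UMIs per 1000000 UMIs, linear and starting at 0, a separate scale per gene) in cells of each type (x axis), with 1 point per library that had at least 50 cells of the type; filled circles are Gli1+, open squares Gli1-, and colors give the time point. Adcy4 stood at 65.9 to 133 CPM in Cdh5 cells, and Adcy6 reached 131 CPM in Rgs5 cells of Gli1+ uninjured tendon.

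Adcy4, one of the isoforms that respond to G protein beta gamma subunits, was the endothelial member. In Cdh5 cells uninjured tendon had 116 CPM, 7 dpi 65.9 and 21 dpi 93.4 among Gli1+ cells, with 133, 82.9 and 82.9 CPM among Gli1- cells. In Pdgfra cells it was 3.09, 4.18 and 3.78 CPM among Gli1+ cells and 8.09, 6.61 and 4.62 among Gli1- cells, so the lowest Cdh5 value lay far above the highest Pdgfra value. Types were compared within libraries by edgeR's quasi-likelihood test on UMIs summed per library and type, with Benjamini-Hochberg adjustment over all 19089 genes. The log2 fold change of Adcy4 in Cdh5 over Pdgfra cells was 4.08 (SE 0.27, adjusted p = 3.04e-11), with Cdh5 higher in 6 of 6 libraries. Adcy4 was the only member called higher in Cdh5 cells, where 21.7% of all genes were called higher. It held 44.0% to 62.8% of the family's UMIs in Cdh5 cells and 1.64% to 4.83% in Pdgfra cells.

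At a depth thinned to 2000 UMIs per cell, 7.35% to 23.3% of Cdh5 cells had an Adcy4 UMI. The share in Pdgfra cells, which stands for the background of this readout, was 0.536% to 1.65%. Without thinning the shares were 32.0% to 47.7% and 3.05% to 7.84%, at median depths of 3074.5 to 7864 and 6331 to 12195 UMIs per cell. The 3 genes whose log levels were most like those of Adcy4 over the 29 sums of a library and type were Sox7, Egfl7 and Mmrn2, with Pearson's r of 0.97, 0.97 and 0.96. These sums share libraries, and the likeness is a description among 15418 genes.

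Rgs5 cells also had more Adcy4 than Pdgfra cells (log2 fold change 1.16, SE 0.27, adjusted p = 0.00192, edgeR), and 1 library stood apart. Adcy4 was at 9.55, 11.5 and 5.03 CPM for Gli1+ against 47.6, 14.2 and 6.71 CPM for Gli1- Rgs5 cells of uninjured tendon, 7 dpi and 21 dpi. The Gli1- uninjured value was the highest of the 6, and without that library the log2 fold change was 0.79 (SE 0.25, adjusted p = 0.018, edgeR). The summed level of the 7 endothelial markers in its Rgs5 cells was 2428 CPM, with Cdh5 itself at 107.6 CPM, against 458 to 1170 CPM of the list in the other libraries, all 7 markers being detected in each. In Rgs5 cells with no UMI of another lineage's defining gene, Adcy4 in this library was 33.6 CPM. The part of endothelial transcripts in the value was not tested.

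Adcy2, another isoform that responds to beta gamma subunits, had the highest level of the family in most mesenchymal cells. In Scx cells it was at 179.9, 82.2 and 67.6 CPM for Gli1+ against 190.4, 80.7 and 83.0 CPM for Gli1- tendon that was uninjured, at 7 dpi and at 21 dpi. Both uninjured values lay above all 4 values after injury. In Pdgfra cells the levels were 48.3, 59.7 and 53.7 CPM for Gli1+ against 47.2, 49.8 and 67.0 CPM for Gli1- tendon, with the uninjured library lowest in both sorts. Scx cells exceeded Pdgfra cells in 6 of 6 libraries by a log2 fold change of 0.99 (SE 0.31, adjusted p = 0.0288, edgeR's quasi-likelihood test). This call was lost in 4 of 6 fits that left out a library, those without an uninjured or a 7 dpi library, where the log2 fold change was 0.80 to 1.10 and the adjusted p reached 0.0752, in cells with no UMI of another lineage (adjusted p = 0.145) and with a gate of 1 Scx UMI (adjusted p = 0.0785).

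In Rgs5 cells Adcy2 moved the other way over time. It was at 39.6, 93.6 and 139 CPM for Gli1+ against 31.7, 77.1 and 159 CPM for Gli1- cells, so that the uninjured libraries were lowest and those of 21 dpi highest in both sorts. Its share of the family in these cells was 10.7% and 11.5% before injury and 48.2% and 51.6% at 21 dpi. In Cdh5 cells Adcy2 was low, at 8.10 to 15.7 CPM (log2 fold change over Pdgfra cells -2.40, SE 0.37, adjusted p = 9.72e-06, edgeR). The genes most like Adcy2 over the 29 sums were Cacna2d1, Loxl3 and P3h3 (Pearson's r of 0.92 for each).

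Adcy7, the third isoform that responds to beta gamma subunits, had its highest levels in Scx cells of uninjured tendon and led the family in leukocytes. Scx cells had 103 CPM in Gli1+ uninjured tendon, 36.1 at 7 dpi and 46.6 at 21 dpi, and 116, 38.2 and 46.6 CPM in Gli1- tendon. As for Adcy2, both uninjured values exceeded all values after injury. Pdgfra cells had 26.6 to 44.4 CPM, and the log2 fold change of Scx over Pdgfra cells was 0.92 (SE 0.25, adjusted p = 0.0119, edgeR), which a gate of 1 Scx UMI did not keep (adjusted p = 0.155, edgeR). Ptprc cells, which only the Gli1+ uninjured library sampled, had 55.4 CPM (95% interval 53.0 to 58.0), or 60.6% of the family's UMIs. Pdgfra cells of that library had 44.4 CPM. Among Ptprc cells, those with Cd3 UMIs had 53.7 CPM and those without had 64.0 CPM. Adcy7 was lower than in Pdgfra cells in Cdh5 cells (log2 fold change -2.38, SE 0.32, adjusted p = 1.32e-06) and in Rgs5 cells (-1.65, SE 0.29, adjusted p = 8.26e-05), both by edgeR.

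Because Adcy2 and Adcy7 were lower after injury in the same cells and Adcy4 was the endothelial member, the 250 bases before the RefSeq start of each are shown in the direction of the gene, in the GRCm38.p6 build. Capitals mark CANNTG, the E-box that basic helix-loop-helix factors such as the tendon factor encoded by Scx bind; it is its own reverse complement, so both strands were searched. Adcy2 lies on the minus strand (chr13:68999542-68999791), Adcy7 on the plus strand (its first of 3 listed starts, chr8:88282742-88282991) and Adcy4 on the minus strand (chr14:55784073-55784322).
Adcy2: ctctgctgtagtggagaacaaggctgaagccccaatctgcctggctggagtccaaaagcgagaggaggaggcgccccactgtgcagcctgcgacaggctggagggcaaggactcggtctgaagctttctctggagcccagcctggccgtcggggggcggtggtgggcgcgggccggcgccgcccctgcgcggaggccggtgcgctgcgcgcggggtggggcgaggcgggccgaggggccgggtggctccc
Adcy7: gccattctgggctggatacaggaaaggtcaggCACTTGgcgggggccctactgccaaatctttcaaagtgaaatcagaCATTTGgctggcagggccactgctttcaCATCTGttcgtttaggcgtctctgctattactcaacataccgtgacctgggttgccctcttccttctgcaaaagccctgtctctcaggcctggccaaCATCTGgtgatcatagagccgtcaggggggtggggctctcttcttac
Adcy4: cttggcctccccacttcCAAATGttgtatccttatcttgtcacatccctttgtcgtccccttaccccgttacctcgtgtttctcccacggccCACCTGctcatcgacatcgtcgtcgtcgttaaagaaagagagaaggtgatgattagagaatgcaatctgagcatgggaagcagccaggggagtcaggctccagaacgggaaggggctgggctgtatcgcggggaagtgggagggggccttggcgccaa
The Adcy2 window held 0 E-boxes, the Adcy4 window 2 and the printed Adcy7 window 4, while the windows of the other Adcy7 starts held 1 and 2. Of all 32851 RefSeq promoter windows of this length, 66.2% held at least 1, with a median of 1, so a match is common. The cAMP response element TGACGTCA was in 0 of the 10 windows listed for 7 of the 9 genes and in 1.55% of all windows. A match is a description of letters and not a site of binding, and which of the 3 Adcy7 starts these cells used is not known from 3 prime counts.

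Adcy6, one of the isoforms that calcium inhibits, had its highest levels in Rgs5 cells. It was at 131, 23.8 and 47.7 CPM for Gli1+ against 70.2, 31.2 and 40.8 CPM for Gli1- Rgs5 cells of uninjured tendon, 7 dpi and 21 dpi. Uninjured cells were highest and cells of 7 dpi lowest in both sorts. In Pdgfra cells Adcy6 was at 7.44 to 11.4 CPM and in Cdh5 cells at 8.33 to 20.6 CPM. The log2 fold change of Rgs5 over Pdgfra cells was 2.19 (SE 0.19, adjusted p = 9.15e-09, edgeR's quasi-likelihood test), with Rgs5 cells higher in 6 of 6 libraries. Gucy1a1, which encodes a subunit of the soluble guanylyl cyclase, Inpp5a and Dmd were most like it over the 29 sums (Pearson's r of 0.94, 0.93 and 0.93).

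Adcy5, the other isoform that calcium inhibits, reached its highest levels in Rgs5 cells. Its level there was 49.1, 6.57 and 26.8 CPM for Gli1+ against 29.0, 11.5 and 23.9 CPM for Gli1- cells, with the 7 dpi libraries lowest in both sorts. The difference from Pdgfra cells did not pass the test (log2 fold change 0.64, SE 0.26, adjusted p = 0.0572, edgeR). Pdgfra cells had 14.7, 7.07 and 12.0 CPM for Gli1+ against 23.1, 10.8 and 9.83 CPM for Gli1- tendon. Adcy5 was lower than this in Scx cells (2.62 to 6.62 CPM; log2 fold change -1.17, SE 0.27, adjusted p = 0.00346) and in Cdh5 cells (0.826 to 5.01 CPM; -2.63, SE 0.34, adjusted p = 1.02e-06), by the same edgeR test. Ptprc cells had 0.175 CPM. Tmem219, Steap4 and Errfi1 were most like Adcy5 over the 29 sums (Pearson's r of 0.93, 0.92 and 0.91).

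The isoforms that respond to calcium and calmodulin were mostly rare. Adcy3 was the exception, at 13.7 to 19.998 CPM in Pdgfra, 12.4 to 24.6 in Scx, 14.9 to 38.6 in Rgs5 and 2.99 to 5.29 in Cdh5 cells. It was lower in Cdh5 than in Pdgfra cells (log2 fold change -2.29, SE 0.24, adjusted p = 4.70e-08, edgeR). In Krt5 cells, keratinocytes that entered the tendon preparations, it was at 13.0 to 24.8 CPM and held 18.6% to 35.2% of the family's UMIs. Ptprc cells with Cd3 UMIs had 17.4 CPM of Adcy3 and those without had 5.28 CPM.

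Adcy1 was counted 544 times in all kept cells, and of the types described here Rgs5 cells had its highest level. Rgs5 cells had 16.4, 4.11 and 3.17 CPM for Gli1+ against 1.74, 1.82 and 4.61 CPM for Gli1- tendon, from 5 to 44 UMIs per library. Against Pdgfra cells, at 0.432 to 2.04 CPM, the log2 fold change in Rgs5 cells was 2.17 (SE 0.48, adjusted p = 0.000971, edgeR).

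Adcy8 was the rarest member, with 174 UMIs in all kept cells. Scx cells held 10, 5 and 32 of them in Gli1+ and 0, 8 and 14 in Gli1- tendon of uninjured, 7 dpi and 21 dpi, or 0 to 2.62 CPM. The 0 in 69 cells allows a level of up to 4.97 CPM, taken as 3 counts, or 6.11 CPM by the exact interval. Pdgfra cells had 0 to 0.251 CPM, from 17 UMIs in all. The fitted log2 fold change of Scx over Pdgfra cells was 3.55, but Adcy8 passed the filter on low counts through the Scx sums in which it is highest, so it is given as a description. Without the Gli1+ uninjured library Adcy8 was too low to be tested.

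Adcy9, the isoform with the weak response to forskolin, was present in every type. Pdgfra cells had 45.9, 16.6 and 23.5 CPM for Gli1+ against 47.0, 19.4 and 24.9 CPM for Gli1- tendon of uninjured, 7 dpi and 21 dpi. The uninjured libraries were highest and those of 7 dpi lowest in both sorts. Scx cells had 14.3 to 27.2 CPM, below Pdgfra cells by a log2 fold change of -0.57 (SE 0.13, adjusted p = 0.00309, edgeR). Cdh5 cells had 22.6 to 45.4 CPM and Rgs5 cells 24.7 to 88.7 CPM, and neither passed the test against Pdgfra cells (adjusted p of 0.487 and 0.066, edgeR). Among leukocytes, cells with Cd3 UMIs had 7.54 CPM and cells without had 41.2 CPM. Akap7, Nbeal1 and Arhgap35 were most like Adcy9 (Pearson's r of 0.91 for each), and Meis3, Aff3 and Armc2 ranked first for Adcy3, Adcy7 and Adcy1 (0.90, 0.86 and 0.87). Adcy8 was under the 500 UMIs set for this comparison.

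Counted over the family, 3 of 9 members, Adcy8 with its filter among them, were called higher and 2 lower in Scx than in Pdgfra cells, where 7.78% of all genes were called higher and 10.3% lower. The counts were 1 higher and 4 lower in Cdh5 cells (background 21.7% and 26.6%) and 3 higher and 1 lower in Rgs5 cells (background 15.1% and 19.5%). In Col2a1 cells 0 of 9 members were called by edgeR and 0 by DESeq2 (background 4.36% and 5.92% by edgeR), 1 member, Adcy5, having an unadjusted p under 0.05 (log2 fold change -0.88, SE 0.33, adjusted p = 0.094). Many Col2a1 cells only just met the gate of 2 UMIs. In the 7 dpi libraries these were 86 of 144 (Gli1+) and 120 of 195 (Gli1-). In the 21 dpi libraries they were 125 of 473 (Gli1+) and 307 of 753 (Gli1-). Pdgfra itself was at 95.7 to 148 CPM in the Col2a1 cells compared. With a gate of 3 UMIs Adcy5 was called lower (log2 fold change -1.21, edgeR). The part of other mesenchymal cells in the Col2a1 result was not tested. Ptprc cells, from 1 library whose spread is assumed to be that of the other sums, gave 0 higher and 6 lower (background 31% and 23.9%). The median log2 fold change of the 9 members was -0.14 in Scx, -0.05 in Col2a1, -0.12 in Cdh5 and 0.55 in Rgs5 cells, against -0.05, -0.07, -0.07 and -0.05 over all genes. Leaving out the Gli1- uninjured library raised the Rgs5 count from 4 to 8 members, with Adcy2, Adcy3, Adcy5 and Adcy9 added as higher. Leaving out the Gli1+ uninjured library lowered the Scx count from 5 to 3, since Adcy2 lost its call and Adcy8 was too low to be tested.

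**Figure D2:**
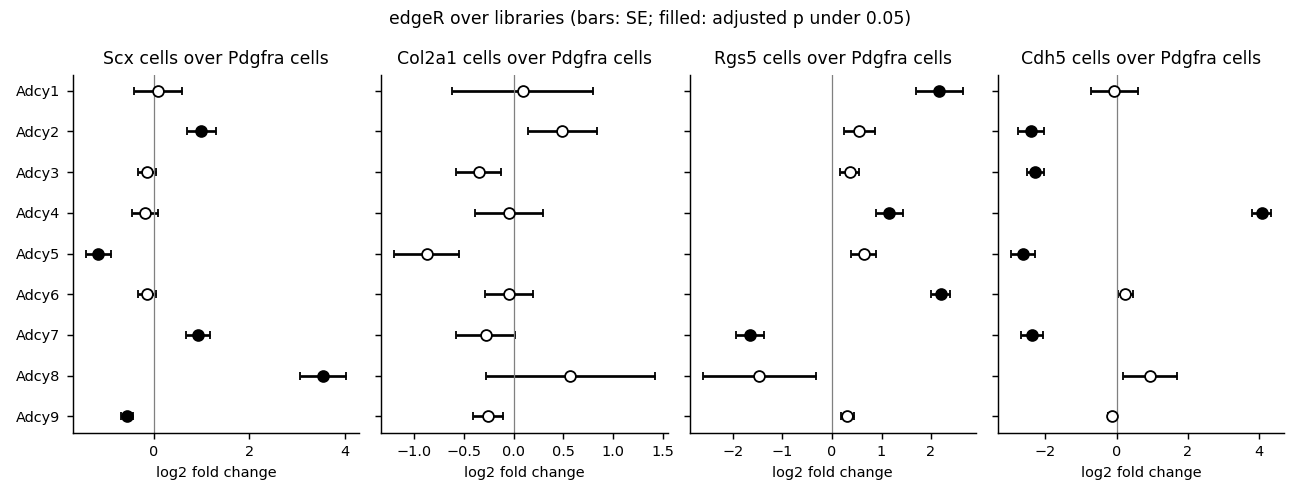
Log2 fold change of each member in Scx, Col2a1, Rgs5 and Cdh5 cells over Pdgfra cells of the same libraries (x axis, its range differing between panels), from edgeR's quasi-likelihood test; bars are standard errors and filled points have an adjusted p under 0.05. Adcy4 stood at 4.08 in Cdh5 cells and Adcy6 at 2.19 in Rgs5 cells, and no point was filled for Col2a1 cells.

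**Figure D3:**
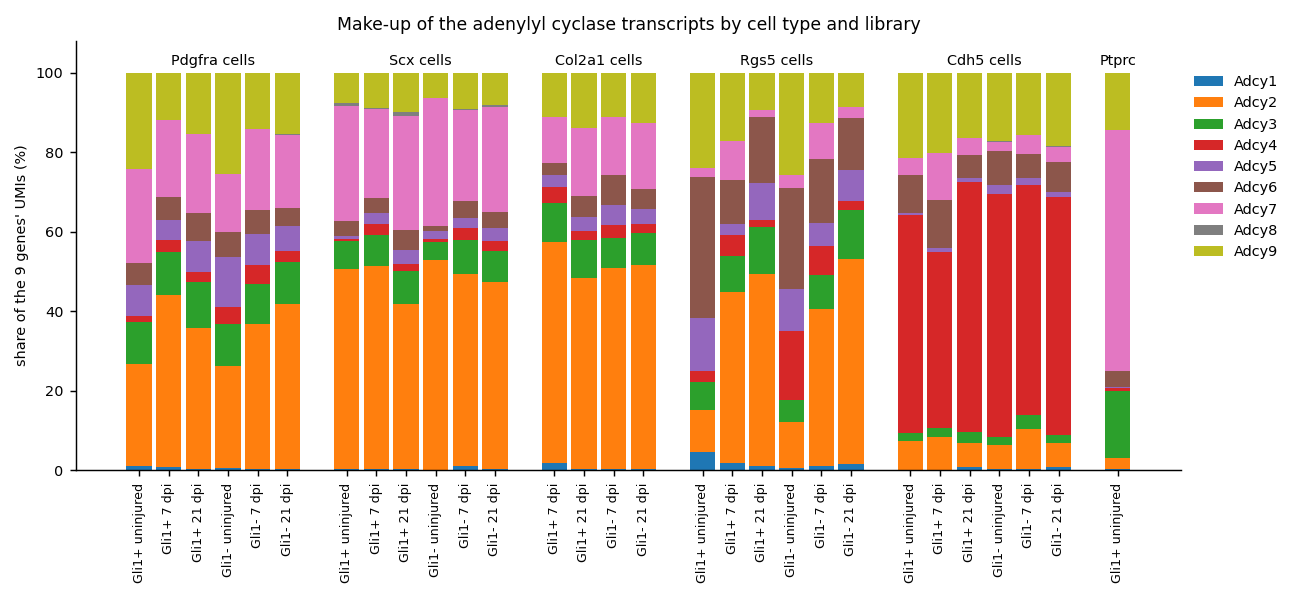
Share of the summed UMIs of the 9 genes held by each gene (y axis, percent, each bar summing to 100%) in every library with at least 50 cells of a type (x axis). Adcy4 held 44.0% to 62.8% in Cdh5 cells, Adcy2 41.5% to 52.8% in Scx cells, and that of Adcy2 in Rgs5 cells was 10.7% and 11.5% before injury and 48.2% and 51.6% at 21 dpi.

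In Pdgfra cells after injury, 1 or 2 of 8 members passed the fold rule in each comparison, as lower, a share near that of all genes. A ratio over the uninjured library of the same sort was called where it was at least 2-fold, its 95% interval left out no change, and both libraries together had 30 or more UMIs; this is a rule of size and not a test, and 8 of the 9 genes could be read. At 7 dpi the log2 ratio of Adcy9 was -1.47 in Gli1+ and -1.28 in Gli1- cells, and that of Adcy5 was -1.06 and -1.09. Thus 2 of 8 members were called lower in each sort (background 18.2% and 15.3% lower) and 0 higher (14.1% and 13.6%). At 21 dpi Adcy9 was at -0.97 and -0.92, just short of the rule, and the members called lower were Adcy1 in both sorts (-2.24 and -1.21, from 14 to 27 UMIs a library) and Adcy5 in Gli1- cells (-1.23), against a background of 17% and 15.4% lower and 8.51% and 12.1% higher. The median log2 ratio of the 8 members was -0.58 and -0.25 in Gli1+ cells at 7 and 21 dpi and -0.50 and -0.71 in Gli1- cells, against -0.14, -0.25, -0.08 and -0.11 over all genes. With TMM scaling, edgeR's trimmed mean normalization, which shifts all log2 ratios of Pdgfra cells up by 0.07 to 0.37, Adcy5 of Gli1+ cells at 7 dpi was at -0.82 and no longer called, as with equal weight of cells (-0.98), a gate of 3 UMIs (-0.96) and types not exclusive (-0.87), while both Adcy9 values at 7 dpi stayed past the rule. The call of Adcy1 in Gli1- cells was lost without the highest-UMI cells (-0.50), with equal weight of cells (-0.84), with a gate of 1 UMI (-0.81) and with no UMI of other lineages (-0.97), and that of Adcy5 in Gli1- cells at 7 dpi under the first 3 of these (-0.89, -0.88 and -0.99). Check markers of Pdgfra cells differed with time too. Col1a1 was at 2004, 16166.5 and 14246 CPM for Gli1+ against 2697, 18982.5 and 12724 CPM for Gli1- cells. Dcn was at 17077, 3954 and 8626 CPM against 19419, 5743 and 8538 CPM. Lum was higher and Tppp3 lower after injury in both sorts, while Dpt, Prrx1 and Ly6a had no direction shared by all comparisons. The part of these markers in the ratios was not tested.

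In Scx cells Adcy2 and Adcy7 were called lower in both sorts at both time points. The log2 ratios of Adcy2 were -1.13 at 7 dpi and -1.41 at 21 dpi in Gli1+ cells and -1.24 and -1.20 in Gli1- cells, those of Adcy7 -1.52, -1.15, -1.60 and -1.31. These 2 genes were all the members called in Gli1- cells (background 11.3% and 12.2% lower and 8.64% and 6.2% higher at 7 and 21 dpi). In Gli1+ cells Adcy6 was called lower as well at 7 dpi (-1.22), and Adcy4 at 7 dpi (1.49, with a level of 4.40 CPM) and Adcy5 at 21 dpi (1.06, 5.45 CPM) were called higher, where 17.5% and 22.6% of genes were called lower and 12% and 7.92% higher. Each of these 3 calls was lost with a gate of 3 Scx UMIs, where Adcy6 was at -0.95, Adcy4 at 1.11 and Adcy5 at 0.59. TMM scaling raised every log2 ratio of Scx cells by 0.24 to 0.53 and left Adcy2 at -0.81 and -0.88 among Gli1+ cells against -0.997 and -0.80 among Gli1- cells, short of the rule, and Adcy7 past it only at 7 dpi. In Gli1+ cells, a gate of 1 Scx UMI left Adcy2 at -0.84 and Adcy7 at -0.92 at 7 dpi and Adcy7 at -0.42 at 21 dpi, all short of the rule, and cells with no UMI of other lineages left Adcy2 at -0.86 at 7 dpi and Adcy7 at -0.82 at 21 dpi. The Gli1- uninjured library had 69 Scx cells, and all 5 of the tendon check markers were lower after injury in each sort too. Tnmd was at 882, 293 and 647 CPM for Gli1+ against 588, 263 and 548 CPM for Gli1- Scx cells, and Mkx at 237, 36.8 and 31.2 CPM against 177, 27.1 and 24.6 CPM. Their part in the ratios was not tested.

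Of the types read over time, Rgs5 cells had the most members past the fold rule, level with Scx cells (3 each) in Gli1+ tendon at 21 dpi. Adcy2 was called higher in all 4 comparisons, with log2 ratios of 1.24 and 1.81 among Gli1+ cells against 1.28 and 2.33 among Gli1- cells at 7 and 21 dpi. Adcy9 was called lower in all 4, at -1.23, -1.73, -1.53 and -1.40. Adcy6 was called lower at 7 dpi (-2.46 and -1.17) and, in Gli1+ cells, at 21 dpi (-1.46), and Adcy5 at 7 dpi (-2.90 and -1.33), after which it was at -0.87 and -0.28. Adcy7, rare in these cells, was called higher at 7 dpi only (1.38 and 1.02). In Gli1- cells Adcy4 was called lower at both times (-1.75 and -2.83), and Adcy1 (1.41) and Adcy3 (1.37) higher at 21 dpi. The summed endothelial markers of Gli1- Rgs5 cells were at 2428 CPM before injury and at 474 and 708 CPM after. Their part in the Adcy4 ratios was not tested. In all, 5 of 6 and 3 of 7 members of Gli1+ cells and 6 of 7 and 5 of 8 of Gli1- cells were called, while 12.7%, 8.75%, 9.84% and 8.32% of all genes were called higher and 19.8%, 16.2%, 17.4% and 18.2% lower. With a gate of 1 Rgs5 UMI, Adcy2 at 7 dpi was at 0.46 and 0.67 and no longer called, and with equal weight of cells 2 members rather than 6 were called in Gli1- cells at 7 dpi. Adcy7 at 7 dpi in Gli1+ cells lost its call under 4 settings, with values of 0.64 to 3.02. With TMM scaling Adcy2 stayed past the rule in all 4 comparisons, while Adcy9 at 7 dpi (-0.85) and Adcy6 at 21 dpi (-0.98) of Gli1+ cells and Adcy6 at 7 dpi of Gli1- cells (-0.90) did not. Adcy1 at 21 dpi lost its call with a gate of 1 UMI (0.56) and with no UMI of other lineages (0.50). Some check markers of the Rgs5 cells differed with time too. The pericyte genes Kcnj8 and Abcc9 were at 510 to 668 and 606 to 1184 CPM before injury. After it they were at 145 to 194 and 162 to 227 CPM. The smooth muscle gene Myh11 was at 760 and 1248 CPM before and at 363 to 480 CPM after. Acta2, another smooth muscle gene, went the other way, at 1729 and 2263 CPM before and at 2562 to 4247 CPM after. Des was at 160 to 224 CPM before and at 160 to 306 CPM after. Higd1b was at 256, 177 and 252 CPM for Gli1+ against 180, 188 and 222 CPM for Gli1- cells of uninjured tendon, 7 dpi and 21 dpi. In the same order Notch3 was at 812, 281 and 419 CPM against 363, 348 and 437 CPM. Their part in the ratios was not tested.

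**Figure D4:**
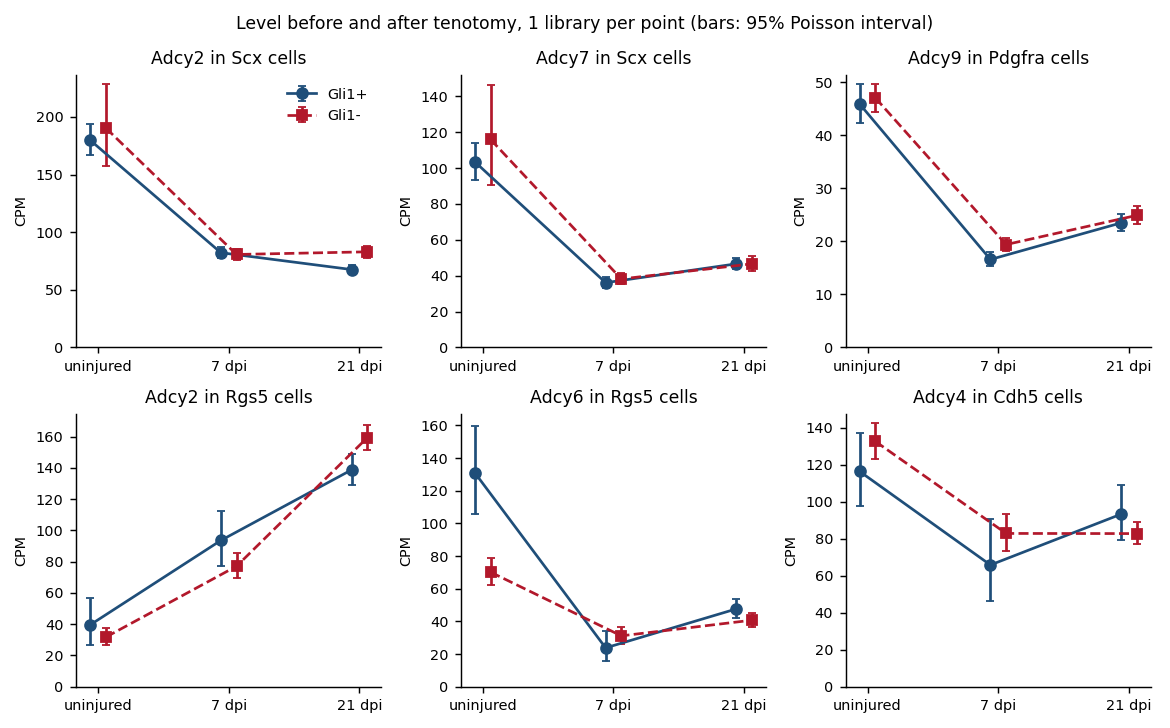
Level (y axis, UMIs per 1000000 UMIs, linear from 0) of 6 pairs of gene and cell type in uninjured tendon, 7 dpi and 21 dpi (x axis), with 1 library per point, circles for Gli1+ and squares for Gli1- cells, and bars for exact Poisson 95% intervals. Adcy2 fell from 179.9 and 190.4 to 67.6 to 83.0 CPM in Scx cells and rose from 39.6 and 31.7 to 139 and 159 CPM in Rgs5 cells.

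Endothelial Adcy4 was lower after injury in both sorts without reaching the fold rule, except with a gate of 1 Cdh5 UMI in Gli1+ cells at 7 dpi (log2 ratio -1.02). Its log2 ratios in Cdh5 cells were -0.82 and -0.32 among Gli1+ cells against -0.68 and -0.68 among Gli1- cells at 7 and 21 dpi, and the interval at 21 dpi in Gli1+ cells (-0.66 to 0.02) included no change. Adcy9 was at -0.59, -0.90, -0.71 and -0.54 in the same order. The summed endothelial markers of Cdh5 cells were at 7482, 3733 and 5197 CPM for Gli1+ against 6949, 4491 and 5236 CPM for Gli1- tendon. Their part in the ratios of Cdh5 cells was not tested. The members called in Cdh5 cells were Adcy6 in Gli1- cells at 7 dpi (-1.14) and in Gli1+ cells at 21 dpi (-1.31), and Adcy5 in Gli1- cells at 21 dpi (-1.75), so 0 of 3 and 1 of 4 members of Gli1+ and 1 of 7 and 1 of 7 of Gli1- cells, against 15.7%, 13%, 10.4% and 14.3% of genes called lower and 12.7%, 9.16%, 9.86% and 9.18% higher. Adcy6 in Gli1+ cells, with 14 UMIs against 25, lost its call with no filter on cells (-0.94), without the highest-UMI cells (-1.01), with equal weight (-0.41) and with no UMI of other lineages (-1.96). In Gli1- cells Adcy6 lost it with equal weight (-0.81) and Adcy5 with no UMI of other lineages (-1.78).

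Ratios over whole libraries mixed these types, in which the libraries differ. In the Gli1+ libraries 1 of 9 members was called at 7 dpi, Adcy8 (log2 ratio -1.28), and 0 at 21 dpi, where 13.7% and 10.1% of genes were called higher and 27.1% and 28.2% lower. In the Gli1- libraries 5 were called lower at 7 dpi, Adcy4 (-1.86), Adcy5 (-1.03), Adcy6 (-1.18), Adcy8 (-2.15) and Adcy9 (-1.34), and 3 at 21 dpi, Adcy4 (-1.39), Adcy5 (-1.01) and Adcy9 (-1.02), with a background of 21.8% and 19.1% lower and 12.4% and 11.3% higher. With TMM scaling, Adcy4, Adcy8 and Adcy9 at 7 dpi and Adcy4 at 21 dpi were the calls kept in the Gli1- libraries, and Adcy2 at 21 dpi, at 0.88 and not called, became a call as higher (1.13). Adcy2 was also past the rule there with no filter on cells (1.01), without the highest-UMI cells (1.29) and with equal weight of cells (1.22). Without the highest-UMI cells and with equal weight, the calls of Adcy5 (-0.88 and -0.64) and Adcy9 (-0.86 and -0.75) at 21 dpi and of Adcy5 at 7 dpi (-0.81 and -0.70) were lost. Among Gli1- cells, Cdh5 cells numbered 1414 of 12042 in uninjured tendon, 530 of 10878 at 7 dpi and 1142 of 12023 at 21 dpi, while Adcy4 was at 36.4, 10.05 and 13.9 CPM. These numbers leave out cells that passed for several lineages. With those included, 3081, 842 and 1487 cells passed the Cdh5 gate. The part of such cells in the whole-library ratios was not tested.

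The question of whether Gli1+ and Gli1- mesenchyme differ in these enzymes was tested in Pdgfra cells, with the 3 time points as blocks. By edgeR's quasi-likelihood test 0 of 8 members were called, with 1 at an unadjusted p under 0.05, and DESeq2 called 0. That member was Adcy4, at 3.09 to 4.18 CPM in Gli1+ and 4.62 to 8.09 CPM in Gli1- cells, lower in Gli1+ cells at 3 of 3 time points (log2 fold change -0.81, SE 0.27, adjusted p = 0.51). The summed endothelial markers of Pdgfra cells were lower in Gli1+ cells too, at 15.7 to 26.9 against 57.2 to 195 CPM, and their part was not tested. Adcy1 differed by 0.67 (SE 0.33), Adcy5 by -0.39 (SE 0.24), Adcy2 by -0.07 (SE 0.12), Adcy3 by 0.00 (SE 0.09), Adcy6 by 0.06 (SE 0.19), Adcy7 by 0.15 (SE 0.16) and Adcy9 by -0.18 (SE 0.08) on the log2 scale. Few genes were called in all, 0.0532% of genes higher and 0.00591% lower in Gli1+ cells, and without the uninjured libraries, whose sorts differed in sex, 0 of 8 members were called as well and Adcy4 was at -0.51. The edgeR fit had 2 residual degrees of freedom, and 1 without the uninjured libraries, which limits what it could call.

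The other genes of the pathway were read in the same Pdgfra cells. Gnas was at 1393, 1754 and 1556 CPM for Gli1+ against 754, 1858 and 1543 CPM for Gli1- cells, so the Gli1- uninjured value stood apart from the other 5. Its log2 ratios were 0.33 and 0.16 among Gli1+ cells against 1.30 and 1.03 among Gli1- cells at 7 and 21 dpi. The catalytic PKA subunits Prkaca (19.4 to 23.2 CPM) and Prkacb (48.5 to 55.7 CPM) had log2 ratios between -0.15 and 0.26. Of the listed 30 genes for G alpha subunits, regulators, effectors and phosphodiesterases, 4 were called higher and 5 lower in Gli1+ cells at 7 dpi and 2 and 6 at 21 dpi, and 4 and 4, then 5 and 4, in Gli1- cells, against the background of Pdgfra cells given above. Their median log2 ratio was -0.11 and -0.03 among Gli1+ cells against 0.10 and 0.18 among Gli1- cells, against the medians over all genes given above.

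The genes of this list called in the same direction in both sorts were as follows. Pde4d, a cAMP phosphodiesterase, was higher at 7 dpi (log2 ratios 1.26 and 1.71) and at 21 dpi (2.10 and 2.91), rising from 155 and 92.0 CPM to 664 and 690.0 CPM. The phosphodiesterase gene Pde3b was higher at 7 dpi (1.21 and 1.91) and the regulatory PKA subunit gene Prkar2b at both times (1.22 and 1.30, then 1.001 and 1.12). The cAMP exchange factor gene Rapgef3 was lower at both times (-2.81 and -2.45, then -2.73 and -2.499), as was Gnaz, which encodes an inhibitory G alpha subunit (-2.09 and -1.61, then -2.02 and -1.26). The summed endothelial markers of these Pdgfra cells were at 26.9, 18.4 and 15.7 CPM for Gli1+ against 195, 57.2 and 65.8 CPM for Gli1- cells. Their part in the Rapgef3 ratios was not tested. Pde4c was lower at 7 dpi (-3.17 and -1.77), and Pde8b (-1.11 and -2.65) and Gnal, which encodes a stimulatory G alpha subunit (-1.06 and -1.38), at 21 dpi. Calls of this list were not repeated with TMM scaling. Its shift of 0.37 in Gli1+ Pdgfra cells at 21 dpi would leave Pde8b and Gnal short of the rule in that sort. The same shift would bring Pde3b (0.86) and Pde7b (0.84) of that sort past it, genes called higher in Gli1- cells at 21 dpi (1.78 and 1.38).

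**Figure D5:**
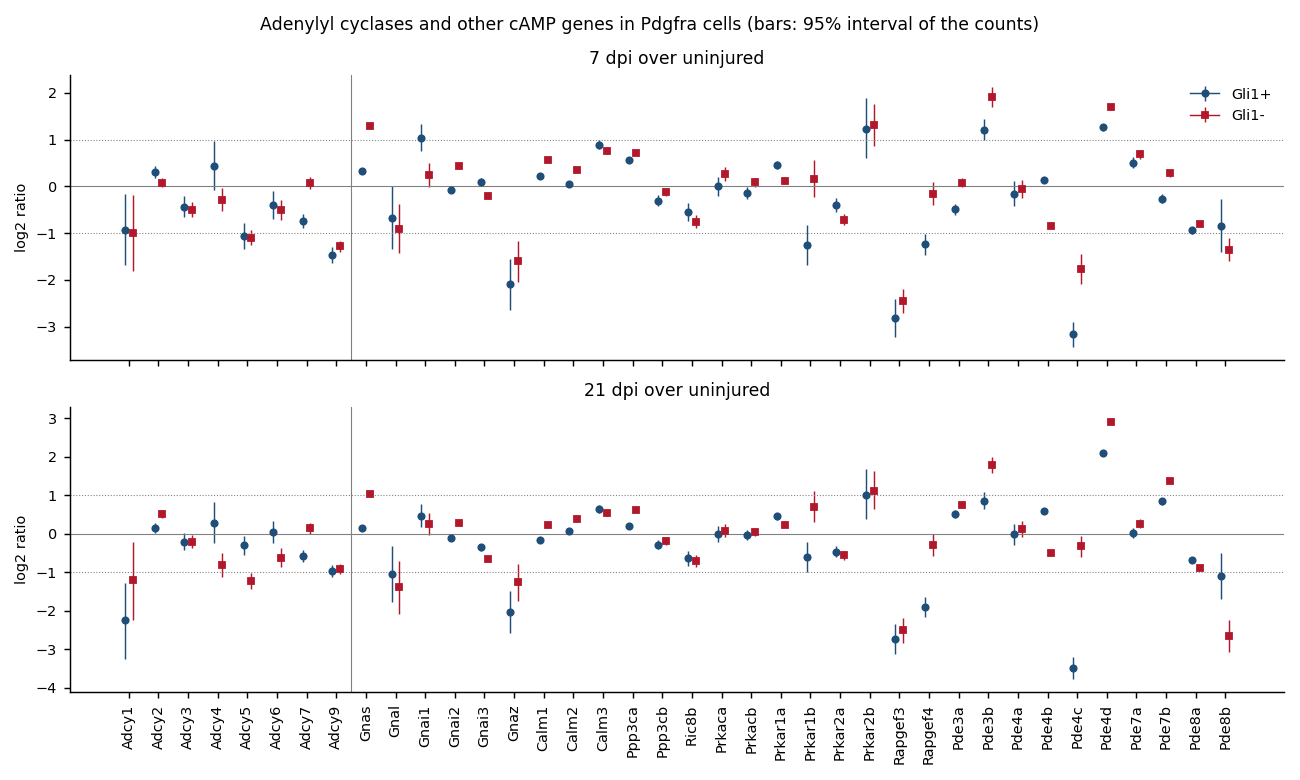
Log2 ratio over the uninjured library of the same sort (y axis) for 8 adenylyl cyclase genes, left of the vertical line, and 30 other cAMP genes (x axis) in Pdgfra cells at 7 dpi (top) and 21 dpi (bottom); circles are Gli1+, squares Gli1-, bars are 95% intervals of the counts and dotted lines mark 2-fold. Adcy9 stood at -1.47 and -1.28 at 7 dpi, and Pde4d at 2.10 and 2.91 at 21 dpi.

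Between types the same 30 genes gave 6 higher and 4 lower in Scx, 1 and 2 in Col2a1, 5 and 9 in Cdh5 and 14 and 6 in Rgs5 than in Pdgfra cells by edgeR's quasi-likelihood test, where over all genes 7.78% and 10.3%, 4.36% and 5.92%, 21.7% and 26.6%, and 15.1% and 19.5% were called. Beside Adcy4, Cdh5 cells had more Rapgef3 (log2 fold change 3.84, adjusted p = 1.11e-10, edgeR) and Rapgef4 (3.59, adjusted p = 1.99e-07, edgeR). Beside Adcy6, Rgs5 cells had more Prkar2b (3.92, adjusted p = 6.45e-10, edgeR), the phosphodiesterase gene Pde3a (2.73, adjusted p = 2.09e-08, edgeR) and Prkacb (1.26, adjusted p = 4.24e-08, edgeR). These 5 genes were named after their values were seen, and others of the list had larger or opposite differences. In Rgs5 cells the phosphodiesterase gene Pde8b was higher (4.08). Among the genes called lower there were the phosphodiesterase genes Pde4d (-1.42), Pde3b (-1.31) and Pde8a (-1.05). Pde3a was lower in Cdh5 cells (-1.58). Gnas was lower than in Pdgfra cells in Cdh5 (-0.63, adjusted p = 0.000134, edgeR) and in Rgs5 cells (-0.69, adjusted p = 9.46e-05, edgeR). This order held in every library after injury but not in uninjured tendon. There Cdh5 and Rgs5 cells had 1493 and 1445 CPM against 1393 CPM in Pdgfra cells of the Gli1+ library. In the Gli1- uninjured library they had 893 and 923 CPM against 754 CPM.

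Keratinocytes, cut by Krt5, were read as a further cell type. Adcy2 was at 0 CPM in the Krt5 cells of Gli1+ uninjured tendon, 33.7 at 7 dpi and 6.89 at 21 dpi, and at 2.61 CPM in those of Gli1- tendon at 21 dpi. The fibroblast gene Dcn was at 465, 1784, 990 and 1325 CPM in the same cells, and in Pdgfra cells of 7 dpi the keratin gene Krt14 was at 1260 CPM in the Gli1+ library against 15.4 CPM in the Gli1- library. The part of such transcripts in the levels of Adcy2 was not tested. Krt5 cells at 7 dpi numbered 3097 in the Gli1+ library.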

How the data were processed

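Single-cell RNA-seq of 6 libraries (Chromium 3 prime chemistry) was analysed from the deposited UMI counts per gene and cell barcode, which the authors made with Cell Ranger, 1 filtered matrix per library. The submitters' processing notes name Cell Ranger 3.1.0, STAR and mm10, while the deposited file headers name Cell Ranger 9.0.0, and 1684 of 33696 gene IDs were not in GENCODE M21. Whether intronic reads were counted is not given in the sources used here.

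Cells were kept with at least 200 genes and 1000 UMIs, a log10 genes per log10 UMIs ratio of at least 0.7, and at most 5% mitochondrial and 5% hemoglobin UMIs, leaving 62710551 to 122826699 UMIs per library. No doublet caller was run; cells with defining genes of more than 1 lineage were left out, and an alternative dropped the cells with the most UMIs, 0.8% for every 1000 cells. Krt5 cells were cut among the remaining cells, and 1 further type is not reported here. Sums over at least 50 cells of a library and type were used. Types were compared with edgeR 4.0.16 (quasi-likelihood test, library as block, called at an adjusted p under 0.05 after Benjamini-Hochberg), and sorts in Pdgfra cells with time point as block. With these blocks, the p-values measure how far the difference between types varies over libraries, or that between sorts over time points. Each library is a pool of mice. By the design the 2 sorts of a time point came from the same mice, so their libraries would not be separate pools. The 2 uninjured libraries differ from this design in the sex of their cells. Xist and no Y-linked UMI were found in 68.7% of their Gli1+ and 0% of their Gli1- cells. The fits had 18 residual degrees of freedom for types and 2 for sorts. DESeq2 1.42.0, R 4.3.3, Python 3.11.15, numpy 2.4.6, scipy 1.17.1, pandas 2.3.3 and matplotlib 3.10.9 were also used. Ratios over uninjured carry exact binomial 95% intervals of the counts and no test. Scripts were tested on simulated data. The members and gene lists were chosen with earlier results of these data known. All members are described. From the 30 listed pathway genes, Gnas, Prkaca and Prkacb were named with those past the fold rule in the same direction in both sorts. In the comparison of types, the pathway genes named beside Adcy4 and Adcy6 were chosen after their values were seen. The 3 most similar genes per member were taken by Pearson's r of log2(CPM + 1) among genes with at least 500 UMIs.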

Additional observations from a re-analysis of the deposited data

Results flagged for a closer look

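Some members had ratios over uninjured in opposite directions in the Gli1+ and Gli1- cells. With 1 library per condition these differences were not tested. In whole libraries at 7 dpi, the log2 ratio of Adcy5 was 0.27 in Gli1+ and -1.03 in Gli1- cells, and that of Adcy7 was -0.96 and 0.46. In whole libraries at 21 dpi, Adcy5 was at 0.93 and -1.01, Adcy6 at 0.16 and -0.83, and Adcy7 at -0.73 and 0.44. In Pdgfra cells at 21 dpi, Adcy7 was at -0.58 in Gli1+ and 0.15 in Gli1- cells. Only the Gli1+ uninjured library held Ptprc cells in number, 3743 of 7508, with Adcy7 at 55.4 CPM and Adcy5 at 0.175 CPM, and their part in the whole-library ratios was not tested.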

How the results depend on the processing

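No paired analysis was possible because the labels give no replicate numbers, apart from the library and time point blocks of the reported fits. The settings with no UMI of other lineages, and the ratios in Scx, Cdh5 and Rgs5 cells, were added after seeing the data. The number of members past the fold rule in whole Gli1+ libraries at 7 dpi (1) was 0 with TMM scaling and with equal weight of cells. At 21 dpi (0) it was 3 with TMM and 1 without the highest-UMI cells or with equal weight. In whole Gli1- libraries at 7 dpi (5) it was 3 with TMM. In Gli1+ Pdgfra cells at 7 dpi (2) it was 1 with TMM, with 3 UMIs of the defining gene and with types not exclusive, and at 21 dpi (1) it was 2 with 3 UMIs, with types not exclusive and with no UMI of other lineages. In Gli1- Pdgfra cells (2 at each time) it was 1 at both times without the highest-UMI cells, with equal weight and with 1 UMI of the defining gene, and 1 at 21 dpi with no UMI of other lineages. By edgeR, members called in Scx cells (5) were 3 with a 1 UMI gate and 3 to 5 on leaving out a library. In Col2a1 cells (0) they were 1 with a 3 UMI gate and 0 to 1 on leaving out a library, the 1 without Gli1+ uninjured. In Rgs5 cells (4) they were 4 to 8 on leaving out a library. There 5 members were called higher and 1 lower by DESeq2, with RLE size factors, with no filter on cells and with no UMI of other lineages. With a 3 UMI gate 4 were called higher and 1 lower. With a 1 UMI gate, Adcy6 in Gli1- Scx cells turned to -1.43 at 7 dpi and -1.60 at 21 dpi, and Adcy7 in Gli1+ Rgs5 cells at 21 dpi turned to 2.56; the cause was not tested. Of all genes, 10 were called between the sorts by edgeR, 420 by DESeq2, 5 with RLE size factors, 253 with no filter on low counts, 0 without the time block and 0 to 309 on leaving out a time point. In Scx cells, 1486 genes were called higher and 1965 lower, and without Gli1+ at 21 dpi, Gli1- at 7 dpi or Gli1- at 21 dpi 2250, 2209 and 2090 in all. In Col2a1 cells, 833 were called higher and 1130 lower, 667 in all with a 1 UMI gate, and 848, 1109 and 990 without the same libraries. The Ptprc comparison could not be fitted without the Gli1+ uninjured library. Of the other values followed under an alternative (single members, counts over all genes, shares), 1350 held, 81 lost a call, 51 gained one, 81 moved and 3 turned. Between types or sorts, single members were followed only where called in the main fit. Where none was called, the member with the lowest adjusted p was followed. Calls that other members gained there are not in these numbers. Depth limits Adcy1 and Adcy8, which had 544 and 174 UMIs in all.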
